A study of Mus musculus with 8 samples.

Results

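Kainate receptors are tetrameric glutamate-gated cation channels of brain synapses, and Neto proteins are single-pass membrane proteins that bind them and set how long the channel stays open. The genes described here are Grik1, Grik2, Grik3, Grik4 and Grik5, which encode the subunits GluK1 to GluK5, and Neto1 and Neto2, which encode the auxiliary proteins. They were picked out of the tables by gene name. All 7 were found once in each table, out of 55188 genes in the series. RNA came from hippocampus of C57BL/6 mice sampled before fear conditioning. The groups were animals labelled KO for Pyk2, the tyrosine kinase encoded by Ptk2b, and wild-type (WT) animals. Each group had 2 numbered units with 2 technical replicates each, 8 libraries in all, and a unit is counted as 1 animal here (n = 2 per group). The labels describe every mouse as transgenic and give no age, no allele and no statement that a number is a separate mouse, so p-values cover only the spread from unit to unit.

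GluK1, GluK2 and GluK3 can form channels on their own, whereas GluK4 and GluK5 bind glutamate more tightly and need a partner from the first group. In hippocampus, kainate receptors are best known from the mossy fibre synapses between dentate granule cells and CA3 pyramidal cells, and from interneurons. Neto1 is enriched in CA3 pyramidal cells and also associates with NMDA receptors. Values are FPKM, which corrects fragment numbers for transcript length and sequencing depth, so levels of different genes can be set side by side on this scale.

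The pore loop of GluK1 and GluK2 holds a glutamine codon that the enzyme ADAR2 (Adarb1) can edit in the RNA to read as arginine, which lowers calcium flow through the channel. The matching stretch of each subunit is shown because it differs between the subunit classes whose levels are summed by name further below. Each line gives 51 bases of the spliced GENCODE M21 transcript, 5′ to 3′, with the codon at that site in capitals.

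Grik1: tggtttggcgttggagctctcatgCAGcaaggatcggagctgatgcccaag

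Grik2: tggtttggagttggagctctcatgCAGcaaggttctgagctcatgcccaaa

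Grik3: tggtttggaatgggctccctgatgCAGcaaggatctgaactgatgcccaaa

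Grik4: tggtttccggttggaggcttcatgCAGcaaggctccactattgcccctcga

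Grik5: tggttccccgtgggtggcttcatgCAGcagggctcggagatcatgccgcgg

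All 5 genes carry CAG, the glutamine codon, at this place in the reference transcripts. Over the 51 bases Grik1 matched Grik2 at 46 positions and Grik3 matched it at 42, against 34 for Grik5 and 32 for Grik4. In mm10 the codon lies in exon 12 of Grik1 (chr16:87940542-87940544, minus strand), exon 13 of Grik2 (chr10:49244329-49244331, minus strand) and exon 12 of Grik3 (chr4:125691207-125691209, plus strand). In these 3 genes the exon ended 4 bases after the codon, so the printed stretch crosses an exon junction. The codon lies in exon 16 of Grik4 (chr9:42547623-42547625, minus strand) and exon 15 of Grik5 (chr7:25022497-25022499, minus strand), where the exon ran on for 56 bases after the codon. Exon numbers are those of the longest transcript in which the site was found. They differ between transcripts of Grik1, Grik2 and Grik4. A gene-level FPKM does not show which base the transcripts carried, so editing was not measured.

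Grik5 was the most abundant kainate receptor transcript in every animal and made up most of the summed Grik signal. Its share of the summed FPKM of Grik1 to Grik5 was 62.5% and 59.8% in the animals labelled KO, against 61.6% and 59.9% in WT. Grik2, the subunit best known from principal cells, held 13.9% and 14.5% in the animals labelled KO and 14.1% and 14.5% in WT. Grik4, which is known from CA3, held 12.6% and 14.7% in the animals labelled KO and 13.3% and 13.9% in WT. Grik3 held 7.58% to 7.68% in the 4 animals. Grik1, known mainly from interneurons, was the smallest part with 3.37% and 3.41% in the animals labelled KO and 3.35% and 4.06% in WT. The stacked shares of KO1, KO2, WT1 and WT2 look alike, and for each of the 5 subunits the groups overlapped.

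**Figure D1:**
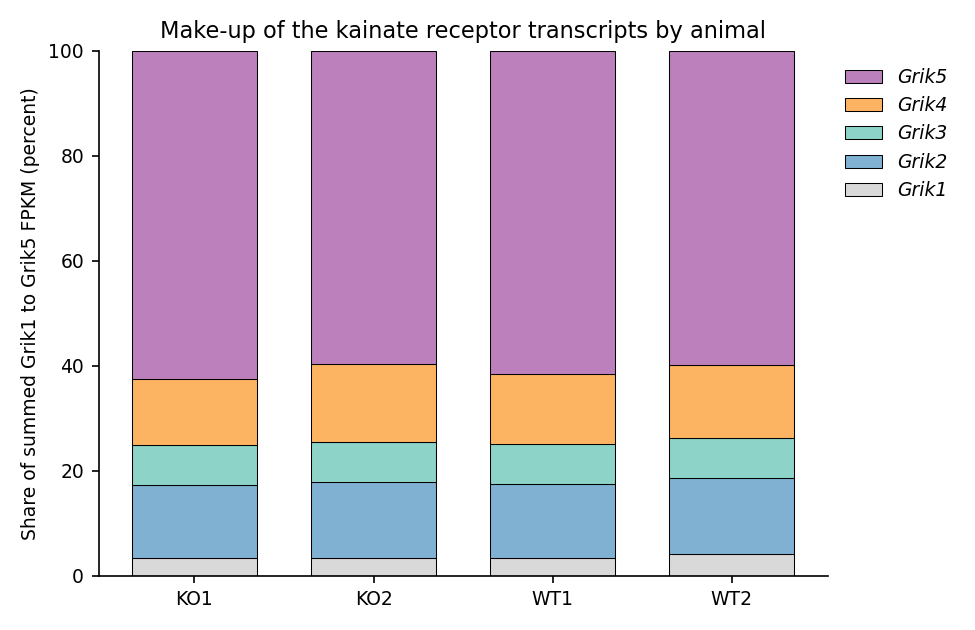
Share of each of Grik1 to Grik5 in their summed FPKM (vertical axis, percent), 1 bar per animal, mean of 2 technical replicates. Grik5 takes 59.8% to 62.5% of each bar and Grik1 3.35% to 4.06%.

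Transcripts of GluK4 and GluK5 together outweighed those of GluK1, GluK2 and GluK3. Their ratio was 2.97 ± 0.0724 in the animals labelled KO and 2.90 ± 0.111 in WT (SD, n = 2 each). Exact permutation of the 4 animals, two-sided, gave p = 0.667, and 0.333 is the smallest p that 2 against 2 animals allow. Neto1 and Neto2 together stood at 0.489 ± 0.0226 of the summed Grik FPKM in animals labelled KO and at 0.488 ± 0.0454 in WT (exact permutation p = 1). Neto2 held 22.0% and 19.0% of the Neto sum in the animals labelled KO and 19.5% and 17.2% in WT, with overlapping groups.

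The order of levels was Grik5, Neto1, Grik2, Grik4, Neto2, Grik3 and Grik1, from high to low, by the mean of the 4 animals. Means over the 4 animals were 56.5 ± 1.88 FPKM for Grik5, 36.6 ± 3.69 for Neto1, 13.2 ± 0.747 for Grik2, 12.7 ± 1.34 for Grik4, 8.79 ± 0.770 for Neto2, 7.07 ± 0.312 for Grik3 and 3.29 ± 0.303 for Grik1 (SD, n = 4). Grik2 and Grik4 are the neighbours that did not differ beyond their spread, since Grik2 was above Grik4 in 3 of 4 animals with a ratio of 0.98 to 1.10. All other neighbours kept their order in 4 of 4 animals with ranges that did not overlap, Neto2 over Grik3 by the narrowest margin with a ratio of 1.16 to 1.37. Grik5 and Neto1 lay at the 92.2 and 87.2 percentiles of the 16667 genes tested, whose median was 7.13 FPKM. Grik3 lay near the middle at the 49.7 percentile, and Grik1 at the 33.3 percentile.

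How fragments were divided among transcript models may bear on this order. Grik3 has 1 annotated transcript of 8973 bases, while the 7 of Grik5 run from 455 to 4061 bases and the 3 of Neto1 from 384 to 8352 bases. The deposited lower and upper limits, whose level is not stated, reached 8.79% to 10.7% on each side for Neto1 at 33.4 to 40.4 FPKM. They reached 3.73% to 4.23% for Grik3, whose level is far lower. The division was not given per transcript, so its part in the levels of Grik5 and Neto1 was not tested.

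**Figure D2:**
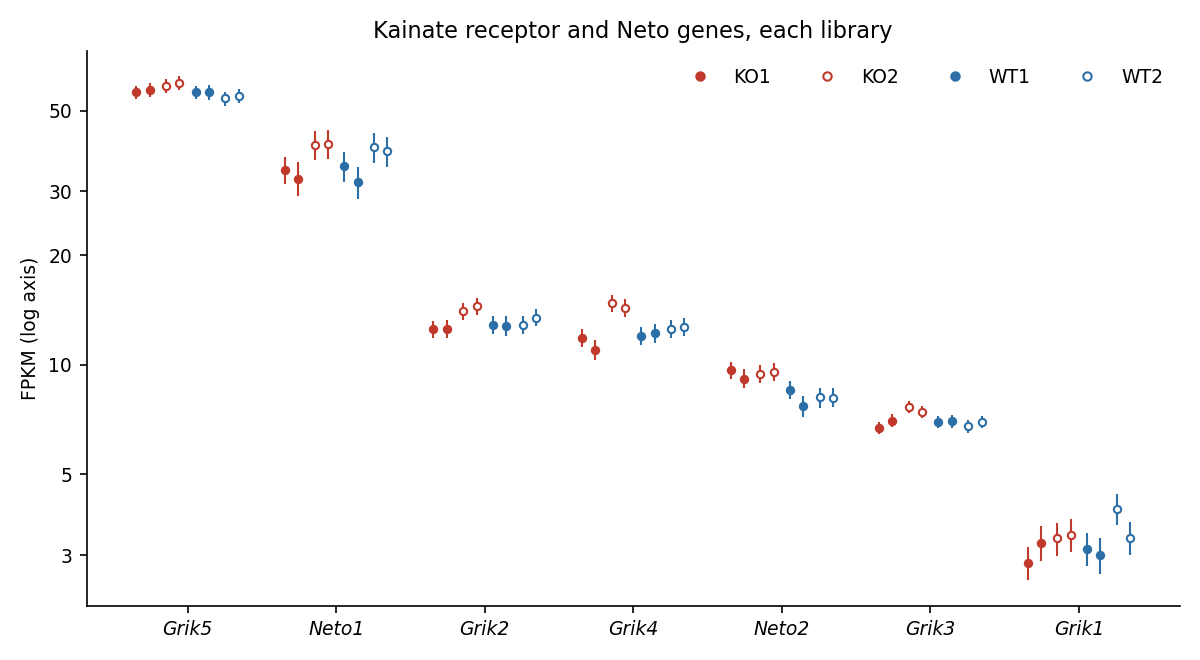
FPKM of the 7 genes on a log axis, 2 points per animal (technical replicates), with the deposited lower and upper limits as bars. Red marks animals labelled KO and blue WT, filled for number 1 and open for number 2. All 4 KO points of Neto2 lie above its 4 WT points, with some of their bars overlapping.

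Before the groups were compared, the targeted gene was examined. Ptk2b had 278 and 269 FPKM under the KO label and 232 and 202 FPKM in WT, so it was not lower under the KO label, and its gene-level value cannot show an exon or protein that is missing. Directions are therefore given for the animals labelled KO. Markers of CA1, CA2, CA3, dentate granule cells and interneurons were above 0 in every animal. Choroid plexus markers summed to 306 and 1266 FPKM in animals labelled KO and to 4320 and 7611 FPKM in WT, with all 15 lower under the KO label, and blood markers to 149 and 158 against 287 and 317 FPKM. Thalamus markers, 2 genes, summed to 14.3 and 16.2 FPKM under the KO label against 24.9 and 16.9 FPKM in WT. The log2 fold change was below 0 for both. Sums of the other lists lay closer together. Oligodendrocyte markers had 3197 and 2799 FPKM under the KO label against 2889 and 2702 FPKM in WT. All 6 had log2 fold changes above 0, with a median of 0.11. Sums were 635 and 602 against 605 and 561 for astrocytes, and 104 and 95.6 against 96.1 and 89.1 for microglia. For neocortex they were 35.6 and 34.2 against 28.3 and 36.1, and for striatum 21.6 and 20.5 against 22.4 and 19.8. They were 40.4 and 40.8 against 43.4 and 35.7 FPKM for dentate granule cells, and 49.8 and 46.8 against 48.9 and 41.7 for CA2. The part of these tissue differences in the results below was not tested.

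None of the 7 genes passed the threshold between the groups. Tested as log2(FPKM + 1) with limma over all genes, with Benjamini-Hochberg adjustment, 0 of 7 were called, where 9 of 16667 genes were called (0.0540%). That number was 128 without KO2, 1 without KO1 and 0 without WT1 or without WT2, in fits that leave 1 animal in a group and take the spread from the other group alone. At an unadjusted p under 0.05 there was 1 of 7, Neto2, where 15.5% of all genes tested had such a p. Both animals labelled KO lay above both WT animals for 2 of 7 genes, Grik5 and Neto2, where 18.4% of all genes did so. None of the 7 lay wholly below, where 30.7% of all genes did. The median log2 fold change was 0.05 over the 7 genes and -0.02 over all genes tested. It was above 0 for 6 of the 7 genes and below 0 for Grik1, and above 0 for all 7 after quantile normalization.

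Of the subunits that form channels alone, Grik1 had 3.05 and 3.37 FPKM in animals labelled KO and 3.06 and 3.68 FPKM in WT. Grik1 gave a log2 fold change of -0.05 (SE 0.10, limma adjusted p = 0.847), which was 0.05 after quantile normalization. Its technical replicates differed by up to 18.4%, in WT2, which is more than the 4.80% between the group means. Grik2 had 12.6 and 14.3 FPKM in animals labelled KO and 12.8 and 13.2 FPKM in WT, so both WT values lay between the KO values. Its log2 fold change was 0.04 (SE 0.07, limma adjusted p = 0.844). The 95% interval for the KO over WT fold of Grik2 was 0.904 to 1.17. Grik3 had 6.87 and 7.53 FPKM in animals labelled KO and 6.995 and 6.88 FPKM in WT, and its log2 fold change was 0.05 (SE 0.07, limma adjusted p = 0.784).

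Of the high-affinity subunits, Grik5 had 56.6 and 59.0 FPKM in animals labelled KO and 56.1 and 54.4 FPKM in WT. The groups of Grik5 did not overlap, but KO1 lay close to WT1 and the difference was small, with a log2 fold change of 0.06 (SE 0.04, limma adjusted p = 0.520). The 95% interval for its fold was 0.970 to 1.13. Grik4 had 11.4 and 14.6 FPKM in animals labelled KO and 12.1 and 12.6 FPKM in WT, so its lowest and its highest animal both carried the KO label. The log2 fold change of Grik4 was 0.06 (SE 0.11, limma adjusted p = 0.854).

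Neto2 showed the largest difference of the 7 genes as a percentage and the closest animal means within each group. It had 9.66 and 9.17 FPKM in the libraries of KO1 and 9.44 and 9.55 FPKM in those of KO2, against 8.52 and 7.69 FPKM in the libraries of WT1 and 8.14 and 8.12 FPKM in those of WT2. All 4 libraries labelled KO lay above all 4 WT libraries, but these are technical replicates of 2 animals per group. The deposited limits of the KO2 libraries (8.89 to 10.1 FPKM) lay above those of the WT2 libraries (7.63 to 8.65 FPKM). Those of KO2 overlapped the limits of WT1 (7.18 to 9.01 FPKM). Those of KO1 (8.62 to 10.2 FPKM) overlapped the limits of both WT animals. The animal means were 9.45 ± 0.0584 FPKM under the KO label and 8.12 ± 0.0187 FPKM in WT (SD, n = 2 each), 16.4% higher. The log2 fold change was 0.20 (SE 0.05, 95% interval 0.07 to 0.33), and the unadjusted limma p was 0.0122. Neto2 did not pass after adjustment (limma adjusted p = 0.205). By exact permutation of the animals, two-sided, p was 0.333, the smallest value possible here. The technical replicates of WT1 differed by 10.3%, so the close agreement of animal means is tighter than that of single libraries. Across 13 other settings its log2 fold change ran from 0.18 to 0.25 and its adjusted p from 0.171 to 0.635.

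Neto1 had 33.4 and 40.4 FPKM in animals labelled KO and 33.4 and 39.1 FPKM in WT. Number 2 was the higher animal in both groups, by 1.21-fold under the KO label and 1.17-fold in WT, while the group means differed by 1.73%. Both number 2 animals also lay above both number 1 animals for Grik1, Grik2 and Grik4, whose WT2 over WT1 ratios were 1.21, 1.03 and 1.04. The log2 fold change of Neto1 was 0.02 (SE 0.12, limma adjusted p = 0.947). All 15 choroid plexus and all 5 blood markers were higher in number 2 than in number 1 within both groups. Their sums were however lower in KO2 (1266 and 158 FPKM) than in WT1 (4320 and 287 FPKM). The part of these markers in the values of Neto1, Grik1, Grik2 and Grik4 was not tested.

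The spread within the KO label was wider than the difference between the labels for several members. KO2 exceeded KO1 by 1.27-fold for Grik4, 1.21-fold for Neto1, 1.14-fold for Grik2, 1.11-fold for Grik1 and 1.10-fold for Grik3. For Grik4 the deposited limits of the KO1 libraries spanned 10.3 to 12.5 FPKM and those of the KO2 libraries 13.5 to 15.6 FPKM, so they did not overlap. These limits cover single libraries and not the spread between animals. Leaving out KO2 turned the log2 fold change of Grik2 to -0.05, of Grik3 to -0.01, of Grik4 to -0.10 and of Neto1 to -0.11. CA3 markers summed to 60.6 FPKM in KO1 and 64.8 FPKM in KO2, against 62.0 and 54.5 FPKM in WT. Of these 5 markers, 3 were higher in KO2 than in KO1. Bok was the largest part of the CA3 sum, at 36.2 to 43.9 FPKM. Between the labels the CA3 markers went both ways, with 3 log2 fold changes above 0 and 2 below. CA1 markers summed to 155 FPKM in KO1 and 126 FPKM in KO2, against 128 and 123 FPKM in WT. All 4 CA1 markers had log2 fold changes above 0, with a median of 0.19. Interneuron markers, of the cells in which Grik1 is best known, summed to 577 and 574 FPKM in animals labelled KO and 575 and 567 FPKM in WT. Sst was the largest part of that sum, at 281 to 302 FPKM, and the 9 markers went both ways, with 5 log2 fold changes above 0 and 4 below. Slc32a1, the vesicular GABA transporter, had 30.5 and 32.5 FPKM under the KO label against 40.2 and 35.7 FPKM in WT. Npy had 85.8 and 81.0 FPKM under the KO label against 75.5 and 60.5 FPKM in WT. In whole tissue, fewer cells of a type and less RNA per cell cannot be told apart.

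**Figure D3:**
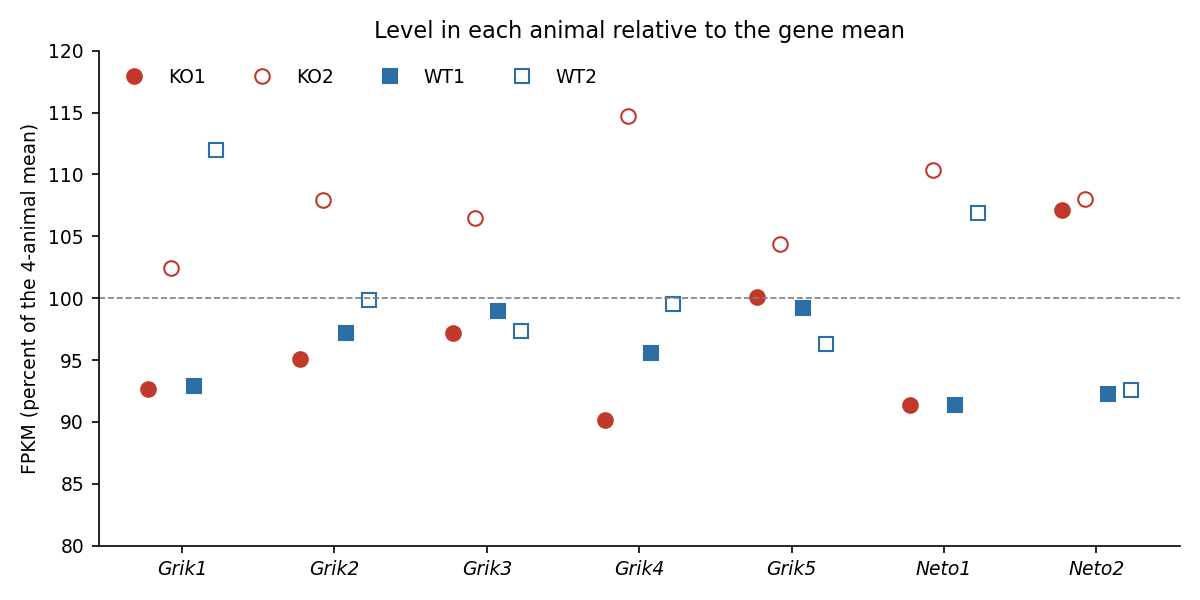
Level of each gene in each animal as a percentage of its mean over the 4 animals, red circles for KO and blue squares for WT, filled for number 1 and open for number 2. Neto2 and, by a small margin, Grik5 separate the labels, and Grik1, Grik2, Grik4 and Neto1 separate the numbers. KO1 and KO2 are the lowest and highest animals of Grik4.

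Kainate receptor transcripts were set beside those of the other glutamate-gated channels. The summed FPKM of Grik1 to Grik5 was 90.5 and 98.7 in the animals labelled KO and 91.1 and 90.8 in WT. AMPA receptor genes, which carry most fast excitatory current, summed to 374 and 379 FPKM in animals labelled KO and to 375 and 360.4 FPKM in WT. NMDA receptor genes summed to 205 and 192 FPKM in animals labelled KO and to 197 and 183 FPKM in WT. The kainate genes therefore held 13.5% to 14.8% of the sum of these 3 families, against 55.9% to 56.9% for AMPA genes and 28.7% to 30.6% for NMDA genes. None of the 3 family sums separated the labels (exact permutation p = 0.667 to 1). Grik5 alone was above Gria3 and above Grin2b, which had 41.8 and 39.8, and 30.04 and 27.9 FPKM in animals labelled KO, and 37.9 and 37.7, and 27.3 and 25.6 FPKM in WT.

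Of 12 other ionotropic subunit genes, 11 passed the minimum level and Grin3b did not. In limma 0 of the 11 were called and 0 had an unadjusted p under 0.05, where 0.0540% and 15.5% of all genes tested did so. Their log2 fold changes were above 0 for 8 and below 0 for 3, with a median of 0.05. Median-of-ratios scaling made this 10 and 1. Both animals labelled KO lay above both WT animals for Gria3, Grin2b and Grid1, and below them for none of the 11, where 18.4% and 30.7% of all genes did so.

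Partners and modifiers of kainate receptors were taken from a list of 16 genes, of which 15 were found and tested, with Klhl17 not analysed here. In limma 0 of 15 were called, and 3 had an unadjusted p under 0.05, Snap25, Adarb1 and Pias3, a number near the 15.5% of all genes tested that had such a p. Their median log2 fold change was 0.04, with 11 above 0 and 4 below, or 13 and 2 after median-of-ratios scaling. Both animals labelled KO lay above both WT animals for 5 of the 15 and below them for 1, where 18.4% and 30.7% of all genes did so. Snap25, the SNARE protein that binds GluK5, had 977 and 923 FPKM in animals labelled KO and 819 and 838 FPKM in WT (log2 fold change 0.20, limma adjusted p = 0.179). Pias3, a SUMO ligase of the type that acts on GluK2, had 8.46 and 7.81 FPKM in animals labelled KO and 9.32 and 9.39 FPKM in WT (log2 fold change -0.18, limma adjusted p = 0.272). Senp1, a SUMO protease, had a log2 fold change of 0.0047.

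The editing enzymes were read with the pore-loop codon in mind. Adarb1 had 29.0 and 28.7 FPKM in animals labelled KO and 26.1 and 26.2 FPKM in WT, with no overlap of the labels (log2 fold change 0.14, SE 0.04, limma adjusted p = 0.221). Its status was other than OK in 3 of the 8 libraries, so KO1, KO2 and WT1 rest on 1 library each. Adar had 31.7 and 31.9 FPKM in animals labelled KO and 30.9 and 32.2 FPKM in WT (limma adjusted p = 0.928).

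C1ql2 and C1ql3 are secreted proteins of mossy fibre terminals that gather kainate receptors at CA3 synapses. C1ql2 had 30.8 and 37.3 FPKM in animals labelled KO and 40.4 and 34.7 FPKM in WT, and C1ql3 42.3 and 46.6 FPKM in animals labelled KO and 42.4 and 41.5 FPKM in WT. Both sets of groups overlapped (limma adjusted p = 0.609 and 0.552). Dlg4, the scaffold PSD-95, had 225 and 217 FPKM in animals labelled KO and 214 and 196 FPKM in WT, without overlap and without a call (limma adjusted p = 0.397). For Dlg1 and Dlg3 the groups overlapped.

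**Figure D4:**
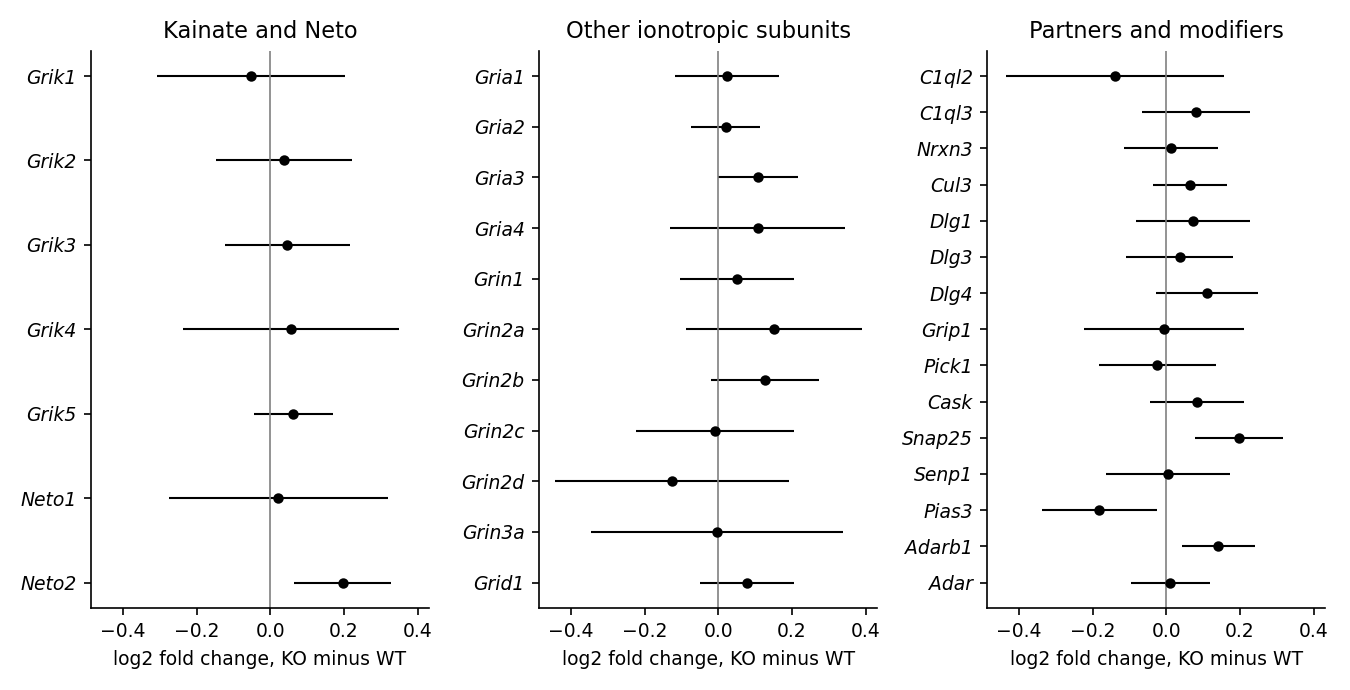
log2 fold change (KO minus WT, horizontal axis) with its 95% interval from limma, before adjustment for multiple tests, for the 7 genes, 11 other ionotropic subunits and 15 partners. The intervals of Neto2, Snap25 and Adarb1 lie above 0 and that of Pias3 below 0, and none of these genes passed after adjustment.

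The genes whose levels ran most alike with each member were listed by Pearson correlation of log2(FPKM + 1) over the 8 libraries. These libraries come from 4 animals whose choroid plexus and blood marker sums differed, and each member was compared with about 9731 genes. High values therefore arise easily and are given as a description. They were Mars1 and Gm7367 for Grik1 (r = 0.960 and 0.955) and Tmem35a and Slc44a5 for Grik2 (r = 0.977 and 0.971). They were Arfip2 and D430019H16Rik for Grik3 (r = 0.951 and 0.950) and Rit2 and Atxn7l1 for Grik4 (r = 0.967 and 0.958). For Grik5 they were Mmp17 and Ntrk3 (r = 0.980 and 0.979), for Neto1 Dnmt1 and Rgmb (r = 0.974 and 0.971), and for Neto2 G3bp2 and Tceal6 (r = 0.988 and 0.984).

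In the deposited tables, which use mm10, Grik1 (ENSMUSG00000022935) spans chr16:87895900-88290265 and Grik2 (ENSMUSG00000056073) spans chr10:49094833-49788766. Grik3 (ENSMUSG00000001985) spans chr4:125490700-125714173, Grik4 (ENSMUSG00000032017) spans chr9:42518135-42944493 and Grik5 (ENSMUSG00000003378) spans chr7:25009849-25072346. Neto1 (ENSMUSG00000050321) spans chr18:86394952-86506718 and Neto2 (ENSMUSG00000036902) spans chr8:85636588-85700924. All are protein-coding, and 0 other protein-coding genes overlap them in GENCODE M21. The noncoding genes inside these spans were at or below 4.55 FPKM, the highest within Grik3, and at or below 0.257 FPKM in the others.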

How the data were processed

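The authors deposited 1 gene table per library with FPKM, a lower and an upper limit and a status, per the file headers. Named in the submitters' processing notes are mm10, Bowtie (version 1) and HISAT without a role; which program made the FPKM, and with what scaling, is not given in the sources used here. Total RNA was taken with Trizol, per the labels' protocols; strand is not mentioned. Read numbers are unknown; sums of FPKM were 489153 to 506251 per library, and 26482 to 27871 genes were above 0. In the tables, 12 values had a status other than OK and were treated as missing, and rows repeating a gene identifier were summed.

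The mean of the technical replicates stood for each animal. A gene was tested if 2 animals had 0.5 FPKM or more. log2(FPKM + 1) was tested with limma 3.58.1 in R 4.3.3 (trended variance, Benjamini-Hochberg, threshold 0.05), after a test on simulated data. Adding 1 pulls the fold changes of weakly expressed genes toward 0. Single values were compared by exact permutation of the animals. Shares are of summed FPKM. Sequences were read from GENCODE M21 transcripts, and the pore codon was located by translating them.

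The members, gene lists, marker lists and settings were chosen with earlier results of these data known. All members, Ptk2b, the listed genes and, for each member, the 2 genes most correlated with it (mean of at least 5 FPKM) could be named, except some listed genes that are not reported here and were left out of their lists' counts; those printed from the lists were picked after their values were seen. Numbers 1 and 2 are shared by the groups, but no label says that they pair animals. Figures were drawn with matplotlib 3.10.9.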

Additional observations from a re-analysis of the deposited data

How the results depend on the processing

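None of the 7 genes was called under any of the 13 other settings; the 4 that leave out an animal take the spread from the other group alone, and the lone animal is assumed to vary like it. Grik5 and Neto2 stayed above 0 in all 13. The log2 fold change of Grik1 turned to 0.05 after quantile normalization (0.0478) and to 0.0535 with technical replicate 2 only, and that of Neto1 to -0.0044 with technical replicate 1 only. With 1 animal left out in turn, Grik1 ran from -0.1556 to 0.0521, Grik2 from -0.0475 to 0.1234, Grik3 from -0.0115 to 0.1041, Grik4 from -0.1049 to 0.2183 and Neto1 from -0.1108 to 0.1552. The number of genes called among all tested was 9, against 0 without a filter on low values (3741 at an unadjusted p under 0.05), 14 with a pseudocount of 0.1, 20 without the first library of KO1, a setting chosen after seeing the data, and 0 to 128 with 1 animal left out (128 without KO2, 1 without KO1, 0 without WT1 or WT2). With the number as a replicate block it was 184, and Neto2 kept an adjusted p of 0.212; the deviations of same-numbered animals correlated at 0.107 over 16667 genes, from only 2 numbers, so the block was not used. The share and ratio values moved by less than 1 SD between animals in all 64 comparisons. For those that leave out an animal this was fixed in advance. Dropping 1 of 4 values cannot move their mean by 1 SD, so these comparisons do not test the composition. With 2 animals a group, small differences could not be called.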
